A study of Mus musculus with 24 samples.

Results

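The *Olfr467* to *Olfr539* receptors are a numbered run of odorant receptor (OR) genes, most of them class II receptors of mouse chromosome 7. The genes were chosen by symbol, from Olfr467 to Olfr539 by number, with or without a -ps suffix, and 51 of the 45706 genes in the table (51 of its 1175 ORs) met that rule. Of these, 50 lie on chromosome 7 and *Olfr475-ps1* lies on chromosome 2, so the label of chromosome 7 did not hold for 1 gene. The class of each receptor was taken from the label and was not checked. A further 21 genes that GENCODE M21 lists under such symbols, 14 of them pseudogenes by type, are not analysed here.

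Bulk RNAseq was made from the dissected main olfactory epithelium (OE) of untreated *WT* and *iRhom2-/-* mice. There were 3 mice per age and genotype at 5, 8, 10 and 30 weeks. The *iRhom2-/-* mice are of mixed 129Sv and C57BL/6 background. Whether the *WT* mice share this background was not checked, so a match of strain between the genotypes is not assumed. The *iRhom2-/-* mice carry the allele Rhbdf2 tm1b(KOMP)Wtsi, in which LacZ is driven by the promoter of the gene for iRhom2, and no other allele or treatment is given for either genotype. Column names tied 12 libraries to single mice of 8 or 10 weeks, whereas the 12 columns numbered 7 to 12 in each genotype were tied to a genotype only and hold the mice of 5 and 30 weeks with the 2 ages mixed. The *WT* mouse 3 of 8 weeks and mouse 3 of each genotype at 10 weeks are labelled female and all others male, and the labels give 1 core reference number for 10 weeks, another for 8 weeks and another for 5 and 30 weeks together, so stratum and core reference cannot be told apart.

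ORs are the G-protein coupled receptors by which olfactory sensory neurons (OSNs) detect odorants. Each mature OSN transcribes 1 allele of 1 OR gene, chosen with the help of the transcription factors Lhx2, Ldb1 and Ebf and of enhancers that meet between chromosomes, and signals through the G protein Gnal, the cyclase Adcy3 and the cyclic nucleotide-gated channel Cnga2. iRhom2, encoded by *Rhbdf2*, is an inactive rhomboid-like protein that guides the sheddase ADAM17 to the cell surface. In bulk tissue, fewer OSNs that chose a receptor and less of its RNA per OSN cannot be told apart.

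On chromosome 7 of GRCm38 the genes fell into 3 blocks. Block A held *Olfr520* and *Olfr521* (chr7:99730273-99769321), block B 35 genes (chr7:107812263-108894420) and block C 13 genes from *Olfr522* to *Olfr539* (chr7:140159999-140678580). *Olfr536*, the receptor with the highest level, is in block C (chr7:140500849-140507396, minus strand). Its coding sequence of 921 bases was 93.7% identical to that of *Olfr530*, with 58 mismatches and no gap. Across all 1275 pairs the median coding identity was 57.0%, and 19 of the 51 genes were over 90% identical to another of the group. The closest pairs were *Olfr486* with *Olfr487* (96.2%) and *Olfr476* with *Olfr477* (95.2%), followed by *Olfr530* with *Olfr536*. How RSEM divided shared reads within such pairs cannot be seen in the table, so their separate counts are uncertain.

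Upstream sequence is shown for *Olfr536* because it alone reached the test threshold described below. A link between this sequence and genotype was not tested. RefSeq windows (GRCm38.p6) of 250 bases before the annotated start were at hand for 46 of the 51 genes. In 43 of the 46 the RefSeq start was the first coding base, and in 34 the whole window lay inside the longer GENCODE gene model, so most windows were not the region before a mapped transcription start. For *Olfr536* the RefSeq start lay 78 bases inside the outermost GENCODE start, and the 172 bases before the latter (chr7:140507397-140507568, minus strand) are shown with capitals on both matches to the Ebf-type core CCCNNGGG.
Olfr536 upstream: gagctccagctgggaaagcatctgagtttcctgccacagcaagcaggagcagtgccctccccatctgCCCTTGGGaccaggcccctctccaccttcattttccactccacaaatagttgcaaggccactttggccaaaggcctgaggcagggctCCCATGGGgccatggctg

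Those matches began 105 and 18 bases before the outermost GENCODE start. Both strands were searched, and CCCNNGGG reads the same way on both. It was found in 2 of the 46 windows (4.35%, *Olfr536* and *Olfr523*), in 2.75% of 944 OR windows and in 11.8% of 32851 windows of all genes. The homeodomain core TAATTA was in 19.6% of the 46 windows, 18.1% of OR windows and 4.84% of all windows, and TATAAA in 43.5%, 39.3% and 12.4%. TAATTA and TATAAA can share bases where they meet, and a match says only that the letters are present.

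Between 25333822 and 48660394 counts per library fell on genes, and 3 counts, taken as the limit that a count of 0 allows, were 0.0622 to 0.112 CPM (counts scaled to library size with TMM normalization, here and below), which covers counting error only. *Rhbdf2* was at 21.8 ± 1.57 CPM in *WT* (SD, n = 12) and 10.4 ± 2.10 in *iRhom2-/-* libraries (SD, n = 12), with no overlap in any of the 3 strata (8 weeks, 10 weeks, columns 7 to 12). *Bpifb9b*, of the secreted BPI fold family, took 13.6% of all counts in *iRhom2-/-* mouse 2 of 10 weeks and 5.53% in *WT* mouse 1 of 8 weeks, and these 2 libraries stood apart from the others in that respect. Columns 7 to 9 and 10 to 12 also stood apart for *Gap43*, a marker of immature OSNs, in opposite order by genotype: it was at 144 to 222 CPM in *WT* columns 7 to 9 and 62.8 to 67.3 in 10 to 12, but at 48.2 to 75.6 in *iRhom2-/-* columns 7 to 9 and 198 to 247 in 10 to 12. The age of each column is not known.

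Levels within the group were very uneven. Per kb of exon, the mean over 24 libraries was 17.2 CPM for *Olfr536*, the highest of all 1175 ORs, and 7.25 CPM for *Olfr533*, the fourth highest. The ratio of the 2 means was 2.38, and their ranges over libraries overlapped (9.14 to 31.6 CPM per kb against 3.71 to 11.8). No library of *Olfr533* fell as low as the highest of *Olfr527*, the next in order at 1.31 CPM per kb (0.536 to 2.13). From *Olfr527* downwards each gene in the order overlapped the next, with *Olfr491* at 0.995, *Olfr531* at 0.919, *Olfr530* at 0.868 and *Olfr467* at 0.777 CPM per kb. The median of the 51 genes was 0.278 CPM per kb against 0.238 for all ORs, and 21 of them ranked in the lower part of the ORs, below their median.

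**Figure D1:**
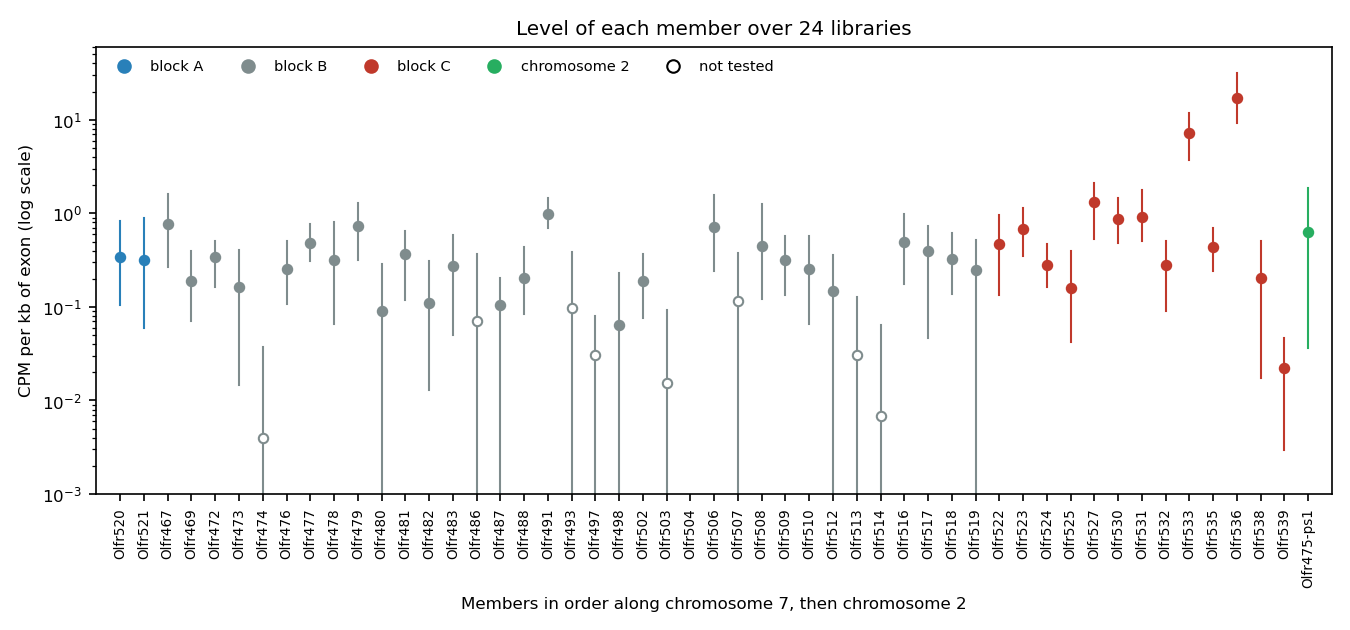
Mean level of each of the 51 genes (points) with the lowest and highest of 24 libraries (lines), in CPM per kb of exon on a log axis, in order along chromosome 7 and then chromosome 2; lines that reach the axis go to 0, and Olfr504 has no point since it had no count. Olfr536 and Olfr533 stand at 17.2 and 7.25, whereas the next gene is at 1.31.

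In counts, which are not per length, *Olfr536* made up 51.9% of the reads of the group and the 8 genes of highest CPM 78.7%. Block C held 81.0% of the counts, block B 17.8%, block A 0.814% and *Olfr475-ps1* 0.402%. A mean of at least 1 CPM was reached by 18 genes, and 37 had a count in every library. Of the 51 genes, 42 passed the filter on low counts and were tested, and 9 did not, all of them in block B (*Olfr474*, *Olfr486*, *Olfr493*, *Olfr497*, *Olfr503*, *Olfr504*, *Olfr507*, *Olfr513* and *Olfr514*), with at most 16 counts in a library and a mean of at most 0.111 CPM. *Olfr504* had no count in any library, so any level lay under the limit above. The coefficient of variation over the 12 *WT* libraries was 15.6% for *Olfr536*, the lowest of the 42 genes that passed the filter. The median was 42.6% and the highest value 81.9% (*Olfr498*). Counts over all libraries ran from 1114 to 6524 for *Olfr536* and from 0 to 23 for *Olfr498*, so counting error weighs unequally on these values.

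*Olfr536* rose in *iRhom2-/-* OE when all libraries were compared, and it was the only gene of the group past the threshold. At 8 weeks its level was 69.6, 59.3 and 72.8 CPM in *WT* mice and 135, 69.4 and 104 CPM in *iRhom2-/-* mice. One *iRhom2-/-* mouse lay within the *WT* range and the other two above it. At 10 weeks it was 59.4, 51.5 and 46.9 CPM in *WT* mice and 112, 97.1 and 81.5 CPM in *iRhom2-/-* mice, so that the groups did not overlap. Columns 7 to 12 ranged from 46.3 to 70.5 CPM (median 58.0) in *WT* and from 39.1 to 110.0 (median 81.7) in *iRhom2-/-* libraries. Here 4 of 6 *iRhom2-/-* libraries were above every *WT* library and 1 was below every one. In *iRhom2-/-* libraries *Olfr536* was at 92.1, 110.0 and 91.8 CPM in columns 7 to 9, where *Gap43* was low, and at 39.1, 55.1 and 71.7 CPM in columns 10 to 12, where it was high. The *WT* levels were 59.6, 70.5 and 56.4 CPM in columns 7 to 9, where *Gap43* was high, and 51.4, 46.3 and 68.1 CPM in columns 10 to 12, which overlapped. Between genotypes, the levels overlapped where *Gap43* was high (39.1 to 71.7 CPM in *iRhom2-/-*, 56.4 to 70.5 in *WT*). Where it was low they did not (91.8 to 110.0 and 46.3 to 68.1 CPM). This grouping was made after the values were seen, and the part of *Gap43* or age in these levels was not tested.

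**Figure D2:**
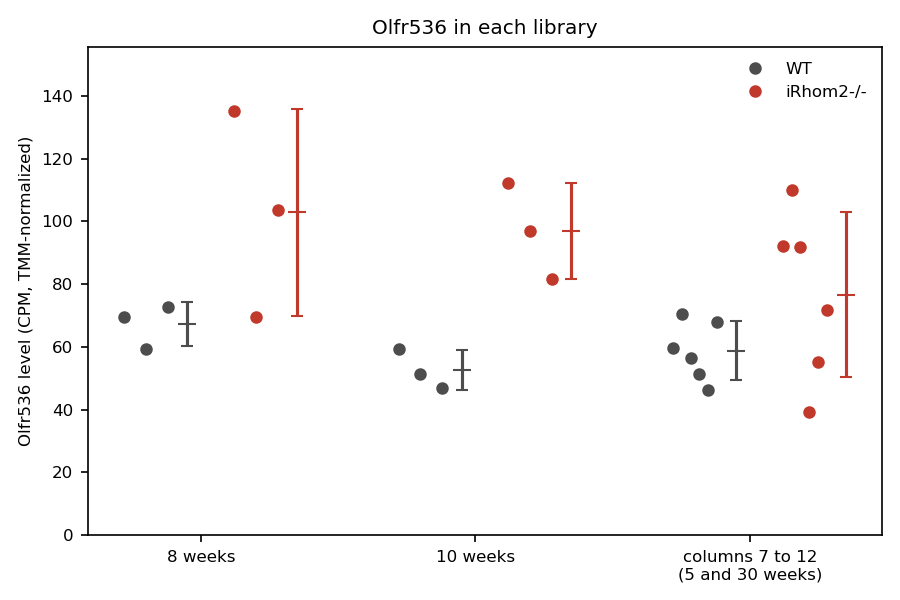
Level of Olfr536 in CPM (TMM-normalized) in each library, for WT and iRhom2-/- mice in the 3 strata; points are libraries, and the bars give mean and SD (n = 3, 3 and 6 per genotype). The groups do not overlap at 10 weeks, whereas they overlap at 8 weeks and widely in columns 7 to 12.

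Means were 59.3 ± 9.27 CPM in *WT* (SD, n = 12) and 88.3 ± 26.6 CPM in *iRhom2-/-* libraries (SD, n = 12), a ratio of 1.49. The log2 fold change with stratum as a term was 0.57 (SE 0.14, adjusted p = 0.0407 by Benjamini-Hochberg over 20763 genes, from the quasi-likelihood test of edgeR), and 10 of 12 *iRhom2-/-* libraries were above the *WT* mean of their stratum. In that comparison 1 of the 42 genes tested was past the threshold, against 1.13% of all genes tested, and 3 had an unadjusted p under 0.05, against 12.4%. Within strata, *Olfr536* did not pass: the log2 fold change was 0.61 (SE 0.22, adjusted p = 0.197) at 8 weeks, 0.88 (SE 0.15, adjusted p = 0.131) at 10 weeks and 0.38 (SE 0.21, adjusted p = 0.451) in columns 7 to 12. With single libraries left out, it ranged from 0.37 (without *iRhom2-/-* mouse 1) to 0.83 (without mouse 2) at 8 weeks, and from 0.25 (without *iRhom2-/-* column 8) to 0.52 (without column 10) in columns 7 to 12. The interaction of genotype and stratum for *Olfr536* had an unadjusted p of 0.342 (adjusted p = 0.678, edgeR).

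The call for *Olfr536* was near the threshold. It was lost (adjusted p of up to 0.0853) without any 1 of 17 of the 24 libraries, and was kept only without *iRhom2-/-* mouse 2 of 8 weeks, *iRhom2-/-* mice 2 and 3 of 10 weeks, *WT* columns 8 and 12 or *iRhom2-/-* columns 10 and 11. It was also lost without the stratum term (adjusted p = 0.0835), with sex as a term (0.0611) and with 8 and 10 weeks alone (0.0676), whereas the log2 fold change stayed between 0.51 and 0.75 in these fits. The last 3 fits named called 91, 219 and 34 of all genes, against 234 in the planned test.

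A share of all OR counts sets *Olfr536* beside the other receptors of the same library. This share was 5.21%, 3.40% and 4.36% in *WT* and 7.02%, 3.45% and 5.09% in *iRhom2-/-* mice of 8 weeks, and the ranges overlapped. At 10 weeks it was 3.45%, 2.54% and 2.48% in *WT* and 5.65%, 5.55% and 5.22% in *iRhom2-/-* mice, without overlap. Columns 7 to 12 ranged from 3.08% to 4.66% in *WT* and from 2.40% to 6.10% in *iRhom2-/-* libraries. Over all strata the mean was 3.72% ± 0.838 in *WT* and 5.00% ± 1.27 in *iRhom2-/-* libraries (SD, n = 12 each).

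The other 50 genes of the group together did not follow *Olfr536*. Their share of OR counts was 4.19% ± 0.503 in *WT* and 3.95% ± 0.494 in *iRhom2-/-* libraries (SD, n = 12 each), and their summed level was 69.1 ± 17.0 and 69.5 ± 13.5 CPM. At 8 weeks their share was lower in each *iRhom2-/-* mouse (3.63% to 3.82%) than in each *WT* mouse (4.09% to 4.57%). Their summed level at 8 weeks was not lower, at 68.3 ± 12.6 CPM in *WT* and 74.2 ± 3.94 CPM in *iRhom2-/-* mice (SD, n = 3 each). All ORs at that age summed to 1582 ± 216 and 1993 ± 58.7 CPM. At 10 weeks and in columns 7 to 12 the ranges of the share overlapped. With *Olfr536* included, the summed level of the group was 128 ± 16.3 CPM in *WT* and 158 ± 36.7 CPM in *iRhom2-/-* libraries, so 28.9 of the 29.4 CPM between the means came from *Olfr536*. No p is given for these sums or for the shares, since the genes were chosen with results known.

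**Figure D3:**
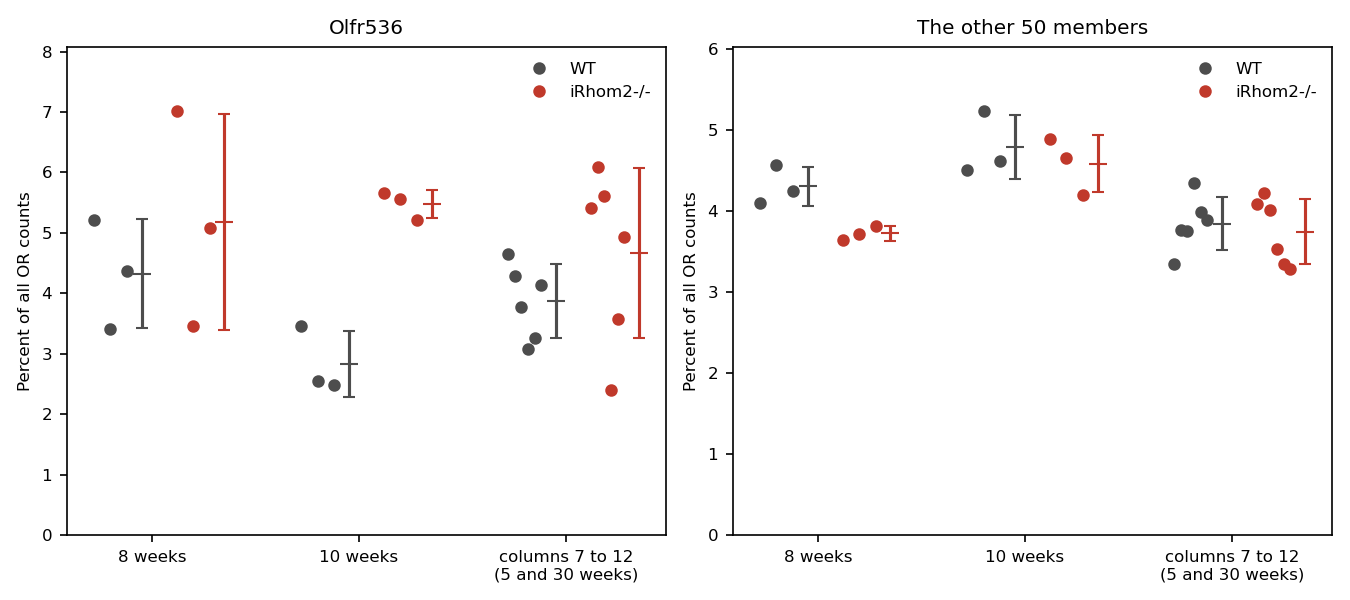
Percent of all OR counts taken by Olfr536 (left) and by the other 50 genes together (right) in each library; points are libraries and bars give mean and SD (n = 3, 3 and 6 per genotype). The share of Olfr536 separates the genotypes at 10 weeks. The share of the other genes separates them at 8 weeks in the opposite direction, although their summed level was not lower in iRhom2-/- mice.

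The neighbours of *Olfr536* on the chromosome were examined next, all of them ORs of block C. *Olfr533*, 2 members away and the second highest of the group, was at 21.2 ± 5.99 CPM in *WT* and 20.6 ± 8.13 CPM in *iRhom2-/-* libraries (SD, n = 12 each; log2 fold change -0.05, SE 0.16, edgeR adjusted p = 0.940). Its *WT* libraries ranged from 12.5 to 34.1 CPM and its *iRhom2-/-* libraries from 10.7 to 33.7, so the genotypes overlapped almost fully. In columns 7 to 9 it was at 12.5 to 18.2 CPM in *WT* and 21.5 to 28.6 CPM in *iRhom2-/-* libraries, and in columns 10 to 12 at 19.1 CPM or more in *WT* and 10.7 to 12.1 CPM in *iRhom2-/-* libraries, lower in each genotype where *Gap43* was high. *Olfr535*, next to *Olfr536*, had a log2 fold change of 0.19 (SE 0.17, adjusted p = 0.734) over all libraries, and its sign differed between strata, with -0.29 at 8 weeks and 0.53 in columns 7 to 12 (unadjusted p = 0.0392, adjusted p = 0.347). On the other side, *Olfr538* had a log2 fold change of 0.57 (SE 0.37) and *Olfr539* of -0.58 (SE 0.36), both at under 1 CPM in every library and neither past the threshold. *Olfr539* overlaps *Olfr540-ps1* on the opposite strand, and whether the counting used strand is not stated. *Olfr530*, the closest relative of *Olfr536*, had a log2 fold change of 0.04 (SE 0.16, adjusted p = 0.959).

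Among the other genes of highest CPM, *Olfr527* (0.05, SE 0.16), *Olfr531* (-0.02, SE 0.12), *Olfr523* (0.25, SE 0.17) and *Olfr479* (0.26, SE 0.17) had log2 fold changes within 2 SE of 0, and *Olfr506* had -0.43 (SE 0.23, unadjusted p = 0.0762). Over all libraries 10 of 13 genes of block C had a positive log2 fold change (median 0.11), as did 12 of 26 tested in block B (median -0.01) and neither of 2 in block A.

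Directions over the group changed with the stratum and went with those of all ORs tested, which include the group. At 8 weeks 33 of the 42 genes had a positive log2 fold change (median 0.25), beside 701 of 952 ORs (median 0.37) and a median of 0.01 over all genes. None passed the threshold, against 1.05% of all genes, and 2 of 42 had an unadjusted p under 0.05 in edgeR, against 19.0% of all genes. At 10 weeks 31 of the 42 were negative (median -0.25), beside 697 of the ORs (median -0.35) and a median of 0.01 over all genes. Again none passed, against 0.121% of all genes, with 5 at an unadjusted p under 0.05 (7.40% of all genes). In columns 7 to 12 24 of 42 were positive (median 0.06, ORs 0.09, all genes -0.01), none passed against 0.183% of all genes, and 2 had an unadjusted p under 0.05 (13.4% of all genes). Over all libraries the median was 0.00 (ORs 0.04), and block B differed most in median between 8 and 10 weeks, with 0.27 and -0.54.

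Only 4 genes were positive and 3 negative in all 3 strata, and 35 were mixed. The 8-week count fell to 27 of 42 without *WT* mouse 1, the library with much *Bpifb9b*, and to 25 without *iRhom2-/-* mouse 2 (median 0.11). At 10 weeks 33 of 42 were negative without *iRhom2-/-* mouse 2 (median -0.22). DESeq2 made more calls over all genes, 7.48% at 8 weeks, 0.926% at 10 weeks and 2.76% in columns 7 to 12. Of the 42 it called none at 8 weeks, *Olfr536* at 10 weeks (adjusted p = 2.6e-05) and *Olfr475-ps1* in columns 7 to 12 (adjusted p = 0.0358). The likelihood ratio test (0.675% of all genes) and edgeR with no filter on low counts (0.139%) also called *Olfr536* at 10 weeks.

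**Figure D4:**
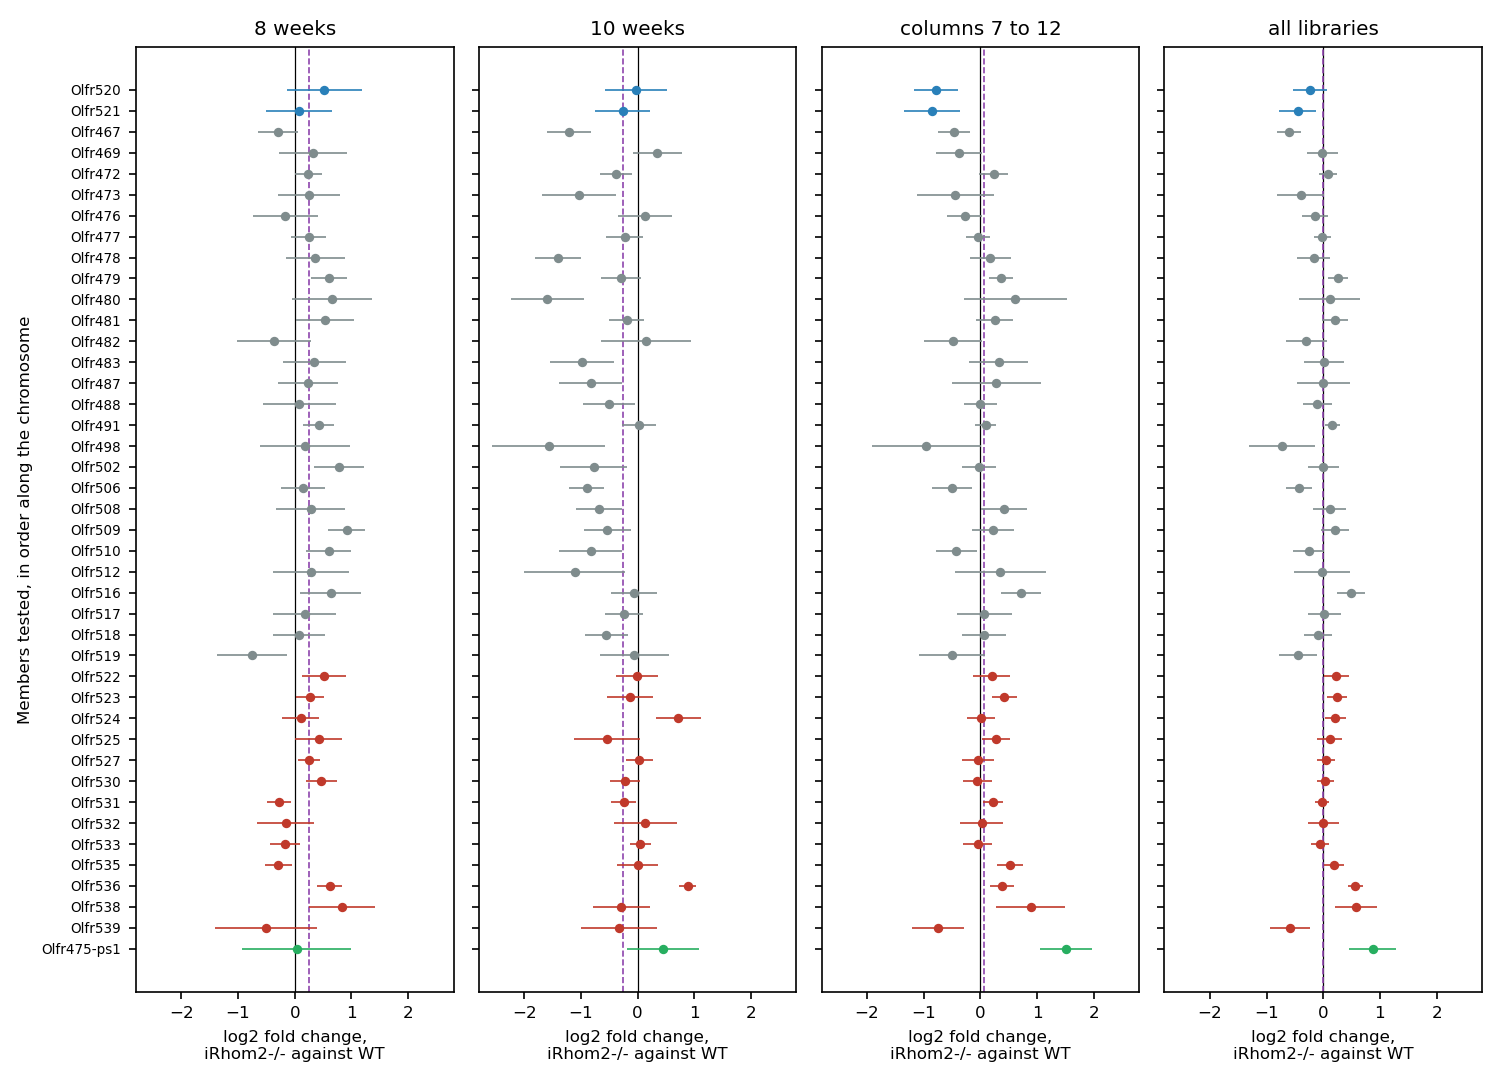
Log2 fold change (points) and SE (lines) of the 42 genes tested, for iRhom2-/- against WT in each stratum and in all libraries, from edgeR; colours give the blocks (blue A, grey B, red C, green chromosome 2) and the dashed line the median. The median stands at 0.25 at 8 weeks and at -0.25 at 10 weeks, and over all libraries only Olfr536 passed the threshold.

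Of the genes that did not pass, *Olfr467* had the smallest p over all libraries in the negative direction (log2 fold change -0.60, SE 0.20, unadjusted p = 0.00704, adjusted p = 0.187, edgeR). At 8 weeks its level was 1.22, 2.10 and 2.34 CPM in *WT* and 1.06, 1.94 and 1.62 CPM in *iRhom2-/-* mice. At 10 weeks it was 1.48, 2.98 and 2.51 CPM in *WT* and 1.35, 1.04 and 0.620 CPM in *iRhom2-/-* mice, without overlap (log2 fold change -1.21, adjusted p = 0.556). Columns 7 to 12 ranged from 1.02 to 1.77 CPM (median 1.43) and from 0.494 to 1.38 CPM (median 1.11), with overlap. *Olfr467* overlaps *Olfr468-ps1* on the same strand, so their reads may not be separable.

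At 10 weeks *Olfr478* had the smallest p in the negative direction (log2 fold change -1.40, SE 0.41, unadjusted p = 0.00865, adjusted p = 0.490), with 1.25, 2.00 and 1.47 CPM in *WT* and 0.808, 0.630 and 0.341 CPM in *iRhom2-/-* mice. At 8 weeks the order was not the same, with 0.566, 1.12 and 0.828 CPM in *WT* and 0.498, 1.79 and 0.933 CPM in *iRhom2-/-* mice. Its interaction of genotype and stratum had the smallest p of the group (unadjusted p = 0.0308, adjusted p = 0.349), followed by that of *Olfr502* (unadjusted p = 0.0879). No gene of the group passed for the interaction, against 0.0144% of all genes tested, and 1 of 42 had an unadjusted p under 0.05, against 12.7%. DESeq2 called none of them for the interaction either, against 0.939% of all genes. *Olfr506* also did not overlap at 10 weeks, with 2.38, 3.04 and 3.38 CPM in *WT* and 2.03, 1.59 and 1.08 CPM in *iRhom2-/-* mice (log2 fold change -0.90, adjusted p = 0.582).

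In all, the genotypes did not overlap for 3 of the 42 genes at 8 weeks, for 8 at 10 weeks and for 1 in columns 7 to 12, against 25.8%, 13.0% and 1.53% of all genes tested. At 10 weeks 7 of the 8 were lower in *iRhom2-/-* mice (*Olfr467*, *Olfr473*, *Olfr478*, *Olfr480*, *Olfr506*, *Olfr508* and *Olfr512*) and *Olfr536* was higher. At 8 weeks *Olfr479* and *Olfr509* were higher and *Olfr531* was lower. *Olfr509* had the smallest p at that age (log2 fold change 0.91, SE 0.32, unadjusted p = 0.0230, adjusted p = 0.191), with 0.893, 0.753 and 0.731 CPM in *WT* and 1.24, 1.29 and 1.96 CPM in *iRhom2-/-* mice. In the negative direction *Olfr531* (log2 fold change -0.27) and *Olfr519* (-0.75) had the smallest p at 8 weeks, with adjusted p = 0.515 and 0.539. Without single libraries *Olfr531* ranged from -0.36 to -0.14, and *Olfr519* was at -0.27 without *WT* mouse 1. In the positive direction at 10 weeks, *Olfr524* (0.72) and *Olfr469* (0.35) followed *Olfr536*, with adjusted p = 0.764 and 0.914, and ranged from 0.49 to 1.05 and from 0.13 to 0.73 without single libraries.

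*Olfr475-ps1*, annotated as a polymorphic pseudogene, on chromosome 2 (chr2:88623305-88624236, plus strand), was the gene that did not overlap in columns 7 to 12. There it ranged from 0.0340 to 0.555 CPM (median 0.394) in *WT* and from 0.597 to 1.73 CPM (median 0.852) in *iRhom2-/-* libraries, with a log2 fold change of 1.52 (SE 0.46, unadjusted p = 0.00568, adjusted p = 0.191, edgeR). At 8 weeks it was at 0.174, 0.251 and 0.780 CPM in *WT* and at 0.913, 0.0633 and 0.250 CPM in *iRhom2-/-* mice, with no common direction. Over all libraries its log2 fold change was 0.87 (SE 0.41, unadjusted p = 0.0437, adjusted p = 0.384).

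Block A had the smallest p in the negative direction in columns 7 to 12. *Olfr520* ranged from 0.162 to 0.590 CPM (median 0.377) in *WT* and from 0.141 to 0.403 CPM (median 0.211) in *iRhom2-/-* libraries (log2 fold change -0.79, SE 0.38), and *Olfr521* had a log2 fold change of -0.85 (SE 0.49), neither past the threshold. *Olfr516*, of block B, stood at 0.71 (SE 0.35) in the other direction. The near-identical *Olfr476* and *Olfr477* had log2 fold changes of -0.15 (SE 0.23) and -0.01 (SE 0.15) over all libraries, and *Olfr487* of 0.00 (SE 0.47), whereas *Olfr486* was not tested.

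Markers of mature OSNs had the same direction as most of the group at 8 and at 10 weeks, and those of immature OSNs did not at 10 weeks. The 14 genes for mature OSNs and odorant transduction, all tested, summed to 11648 to 14340 CPM in *WT* and 17172 to 21670 CPM in *iRhom2-/-* mice at 8 weeks, without overlap, and none was past the threshold (12 of 14 positive, median log2 fold change 0.51, 12 at an unadjusted p under 0.05 in edgeR, which 19.0% of all genes had). At 10 weeks they summed to 17489 to 22280 CPM in *WT* and 15647 to 20501 CPM in *iRhom2-/-* mice, with overlap, 13 of 14 negative (median -0.14) and 1 at an unadjusted p under 0.05. No marker of that list was at 0, and *Omp*, which marks mature OSNs, had log2 fold changes of 0.64 at 8 weeks (adjusted p = 0.128), -0.13 at 10 weeks and -0.02 in columns 7 to 12. At 10 weeks all 8 genes for immature OSNs had a positive log2 fold change (median 0.12, none past the threshold, 2 at an unadjusted p under 0.05), with 0.39 for *Gap43* (SE 0.12, adjusted p = 0.513). Their sums were 1584 to 1816 CPM in *WT* and 1647 to 2033 CPM in *iRhom2-/-* mice, with overlap. *Stmn4*, of that list, was at 120 to 179 CPM in *WT* and 205 to 226 CPM in *iRhom2-/-* mice. The part of these markers in the directions of the ORs was not tested.

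Over all libraries, the other lists of markers had few calls. Of 8 genes for immature OSNs all were positive and *Stmn4* passed (log2 fold change 0.48, adjusted p = 0.00863), and *Gap43* had 0.25 (SE 0.24). Among 12 factors of OR choice and nuclear architecture 10 were positive and *Ebf3*, a member of the Ebf family, passed (0.25, edgeR adjusted p = 0.0140). Of these 12 factors 7 had an unadjusted p under 0.05 in edgeR, as did 2 of the 8 immature OSN genes, against 12.4% of all genes. The threshold was passed by 1.13% of all genes tested. None passed among 10 sustentacular (median 0.03), 10 basal (0.03), 8 respiratory ciliated (0.09), 12 macrophage (-0.28), 10 lymphocyte (-0.77) and 5 erythrocyte genes (0.05), with 0, 2, 1, 5, 10 and 0 of them at an unadjusted p under 0.05 in edgeR, which 12.4% of all genes had. All 12 macrophage and 10 lymphocyte genes were negative. No gene of any list was at 0 in a group, and the part of these cells in the level of *Olfr536* was not tested. Summed over the list, the lymphocyte genes at 8 weeks were at 118 CPM in *WT* mouse 1, 34.1 and 37.0 CPM in the other *WT* mice and 18.6 to 33.7 CPM in *iRhom2-/-* mice, and overlapped at 10 weeks (21.9 to 33.4 and 15.2 to 42.6 CPM) and in columns 7 to 12 (38.0 to 62.8 and 18.3 to 38.3 CPM).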

How the data were processed

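OE libraries were poly(A)-selected and directional. For alignment the authors used STAR on GRCm38 within nf-core, and RSEM gave estimated counts per gene, and the submitters' processing notes also name edgeR. The deposited table holds these counts as whole numbers without normalization, and how they were rounded is not stated. It also holds the authors' fold change, p-value and FDR per gene, which were not used.

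The genes of the group, the lists of markers and the tests were chosen with earlier results of these data known. All 24 libraries entered edgeR 4.0.16 under R 4.3.3. The filter filterByExpr over 6 groups left 20763 of 45706 genes, and TMM scaling was set over all libraries. The quasi-likelihood test was run between genotypes, with stratum as a term for all libraries and alone within 8 weeks, 10 weeks and columns 7 to 12, with a threshold of 0.05 on the Benjamini-Hochberg adjusted p over all genes tested. SE is the log2 fold change divided by the root of the F statistic. Columns 7 to 12 were assigned to 5 and 30 weeks because the other numbers belong to 8 and 10 weeks, and their spread includes both ages. Labels do not say more of how mice were sampled, so p-values measure the spread between these libraries. The fits were also run on simulated counts drawn around the mean of each gene, and the outcome is not given here. No effect of stratum or age common to both genotypes was simulated, so these runs do not speak for data with such effects. No 2 libraries of a group agreed within sampling noise. A permutation test planned for sums and shares over the group was left out, since its genes were chosen with results known.

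Genes given by name are *Olfr536*, the 8 of highest mean CPM, those past the threshold or otherwise the 3 of smallest p in each direction per comparison, the 2 of smallest interaction p, the 2 on each side of *Olfr536*, the -ps gene and the 3 pairs of highest coding identity, used here in place of protein identity. *Rhbdf2*, *Omp* and *Gap43* served as references. Others are named where a count or an order is given, after their values were seen. Identity is over global alignments of the longest coding sequence per gene in GENCODE M21. Alternatives were DESeq2 1.42.0, RLE scaling, other filters (none, or a mean of at least 10 counts), a threshold of 0.1, adjustment over ORs alone, the likelihood ratio test, filter and scaling within a comparison, other terms, the replicate number as a block and each library left out. A filter on low counts keeps a gene that is high in only 1 group, so counts over the 42 genes do not speak for all 51. Stretches of coding sequence of single receptors are not reported here.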

Additional observations from a re-analysis of the deposited data

Results flagged for a closer look

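In columns 7 to 12, 80 groups of 6 libraries were checked for a library far from the others, of which chance alone sets apart about 1 in 20, and 4 had one. *iRhom2-/-* column 8 was high for *Olfr520* (0.403 CPM, others 0.141 to 0.238), *Olfr521* (1.01 CPM, others 0.136 to 0.351) and hence their sum, the first block (1.41 CPM, others 0.370 to 0.492). *iRhom2-/-* column 10 held *Olfr486* at 0.351 CPM, with no count in the other 5 libraries.

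For 4 genes each *iRhom2-/-* mouse was above the *WT* mean at 8 weeks and each was below it at 10 weeks. Of all 952 ORs tested, 701 had a positive log2 fold change at 8 weeks and 697 a negative one at 10 weeks. How many ORs had the pattern of these 4 genes was not counted. The difference of means, *iRhom2-/-* less *WT*, was 0.704 CPM at 8 weeks and -0.550 CPM at 10 weeks for *Olfr509*, 0.381 and -0.308 CPM for *Olfr502*, 0.0738 and -0.203 CPM for *Olfr487* and 0.529 and -0.340 CPM for *Olfr530*. The interaction of genotype and stratum, which also takes in columns 7 to 12, did not pass for any of them in edgeR (adjusted p = 0.467, 0.454, 0.821 and 0.606), and the 2 ages alone were not tested against each other.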

How the results depend on the processing

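Over all libraries the count of genes past the threshold was 1 (*Olfr536*) and 0 to 1 without single libraries. It was 0 without the stratum term, with sex as a term and with 8 and 10 weeks alone, with or without a replicate block (*Olfr536* log2 fold change 0.72 and adjusted p = 0.061 with the block). Over all genes the planned test called 234, and 152 to 379 without single libraries. Without the stratum term 91 of all genes were called, and 219 with sex as a term. With 8 and 10 weeks alone 34 were called, and 10 with the replicate block. At 10 weeks the count went from 0 to 1 (*Olfr536*) with DESeq2, the likelihood ratio test and no filter on low counts (25 of all genes called by the planned test, and 192, 140 and 39 by these), and was 0 to 1 without single libraries, with 1 without *iRhom2-/-* mouse 3. In columns 7 to 12 it went from 0 to 1 (*Olfr475-ps1*) with DESeq2. At 8 weeks and for the interaction it stayed at 0 in each alternative run.

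Same-numbered mice did not deviate together throughout (r from -0.015 to 0.27). Such correlations cannot show whether the numbers pair the mice. With a replicate block *Olfr536* had log2 fold changes of 0.57 at 8 weeks and 0.88 at 10 weeks (adjusted p = 0.09 and 0.0731), and no gene was called.

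Directions turned only for small changes over all libraries. *Olfr535* turned to -0.14 with 8 and 10 weeks alone and -0.17 with the block, and *Olfr487* to -0.27 and -0.18, and to -0.0063 with sex. *Olfr477* turned to 0.017 with 8 and 10 weeks alone and 0.014 with sex. Without single libraries the values ranged from -0.028 to 0.12 for *Olfr527*, -0.072 to 0.028 for *Olfr531*, -0.13 to 0.12 for *Olfr487*, -0.089 to 0.046 for *Olfr477* and -0.040 to 0.084 for *Olfr530*. The cause was not tested.

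Without *Olfr536* the difference in summed level, *iRhom2-/-* less *WT*, went from 29.4 to 0.417 CPM over all libraries, from 41.5 to 5.84 CPM at 8 weeks and from 35.3 to -9.03 CPM at 10 weeks. Without single libraries it ranged from 27.3 to 57.9 CPM at 8 weeks and from 19.8 to 50.9 CPM at 10 weeks. The difference in share of OR counts went from 1.04 to -0.246 percentage points over all libraries and from 2.45 to -0.206 at 10 weeks. Of 224 alternatives for the comparisons and sums, 193 kept their side of the threshold or moved by less than the spread. In 21 others, all for the comparison over all libraries, the call for *Olfr536* was lost. The other comparisons had no call in the planned test to lose. Depth limits the genes under 1 CPM most, which are 33 of the 51.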
